A study of Mus musculus with 8 samples.

Results

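Chemokines are small secreted proteins that direct the migration of leukocytes, and their receptors are 7-transmembrane proteins that mostly signal through Gi proteins. The genes described here are the mouse protein-coding genes whose symbols start with Ccl, Cxcl, Xcl, Cx3cl, Ccr, Cxcr, Cx3cr or Ackr followed by a digit, together with Ccrl2. Ccr9 also fits this pattern but was left out beforehand and is not counted. These rules gave 61 of 21900 protein-coding genes in a RefSeq table of assembly GRCm38.p6. 60 of the 61 lie on assembled chromosomes, as do 21787 of all protein-coding genes, and could be given peaks; Ccl21c lies on an unplaced scaffold and was not analysed here. The 60 are 38 ligand genes (24 CC, 12 CXC, Xcl1 and Cx3cl1) and 22 receptor genes (10 CC, 6 CXC, Cx3cr1, 4 atypical receptors and Ccrl2).

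The study profiled where DC-SCRIPT, a zinc finger protein encoded by Zfp366, sits on chromatin in conventional dendritic cells (cDC) of the mouse spleen. It used CUT&Tag, in which an antibody against the protein directs a transposase to cut and tag the DNA beside it. All animals were female C57BL/6 mice, and each library is a mouse pool per the labels; their age and the number in a pool were not stated in the labels. From zfp366+/+ mice (wild type) there were 3 cDC1 libraries and 1 cDC2 library, and from zfp366-/- mice (knockout) there were 2 cDC1 and 2 cDC2 libraries. The labels name no Cre or other driver for the zfp366-/- allele.

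The deposited data are 2 peak lists, 1 per subset, each called by the authors on 1 wild-type set of tags against 1 knockout set. A peak is 191 bp long and had to hold at least 4 times the knockout tags at equal depth and 4 times the tags of the surrounding 10 kb. The lists hold 31473 cDC1 and 2776 cDC2 peaks. Values below are normalised tags, that is tags per peak scaled to 10000000 tags in the set. The sets held 35.5 M (wild type) and 12.1 M (knockout) tags in cDC1, and 4.77 M and 6.83 M in cDC2 (M, 1000000 tags). The lists hold no value for a single library, so no spread between pools and no test between genotypes or subsets can be given, and every fold below is the ratio the call itself used. Intervals are exact (Clopper-Pearson) 95% intervals of tag ratios and cover counting error only. The lowest listed knockout value is 0.5 tag, or 0.41 normalised tags in cDC1 and 0.73 in cDC2, and also stands for no tag; there only the lower limit of the fold is given. Fewer bound cells and less binding per cell cannot be told apart in these bulk libraries. A peak went to every gene that holds its centre and, failing that, to the gene whose end lay nearest, which does not show that the gene is regulated from it.

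As background, cDC1 present antigen mainly to CD8+ T cells and carry the receptor Xcr1, while cDC2 present mainly to CD4+ T cells. Both subsets enter and leave tissues along chemokine gradients: Ccr7 guides mature dendritic cells toward Ccl19 and Ccl21, Cxcr4 answers to Cxcl12, and Cxcr5 to Cxcl13 of B cell follicles. Dendritic cells also secrete chemokines, such as Ccl17 and Ccl22 for cells with Ccr4, and Cxcl9 for T cells with Cxcr3. Many of these genes stand in tandem clusters, so neighbours can share regulatory DNA.

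The RefSeq promoter table gives a start of transcription for 46 of the 61 genes. At 7 of these 46 a peak reached into the 250 bases before the start, and the stretch under the peak is printed for 5 of them to show the promoter DNA that DC-SCRIPT signal covered: Cxcl9 and its receptor Cxcr3, Cx3cr1 with a peak in both subsets, Cxcr4 with the most peaks, and Ccl3 with a peak in cDC2. Each runs 5′ to 3′ on the strand of the gene and comes from the RefSeq promoter table, build GRCm38.p6. Capitals mark matches to 6 short motifs named below; a stretch with no capitals held none of them.
Cxcl9, cDC1 peak, chr5:92328120-92328310, minus strand: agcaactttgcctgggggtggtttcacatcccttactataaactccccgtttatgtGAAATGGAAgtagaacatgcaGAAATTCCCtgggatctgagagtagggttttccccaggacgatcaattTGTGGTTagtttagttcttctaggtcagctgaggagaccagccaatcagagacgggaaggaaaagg
Cxcr3, cDC1 peak, chrX:101734190-101734380, minus strand: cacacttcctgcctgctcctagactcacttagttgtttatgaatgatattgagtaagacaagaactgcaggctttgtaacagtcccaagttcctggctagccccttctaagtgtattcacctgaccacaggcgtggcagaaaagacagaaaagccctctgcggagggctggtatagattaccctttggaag
Cx3cr1, cDC2 peak, chr9:120068297-120068446, minus strand: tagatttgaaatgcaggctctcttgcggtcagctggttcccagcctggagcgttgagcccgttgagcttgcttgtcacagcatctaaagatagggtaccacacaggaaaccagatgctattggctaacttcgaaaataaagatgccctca
Cxcr4, cDC1 peak, chr1:128592410-128592549, minus strand: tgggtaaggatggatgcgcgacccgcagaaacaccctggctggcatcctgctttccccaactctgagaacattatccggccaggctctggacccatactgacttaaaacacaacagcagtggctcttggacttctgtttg
Ccl3, cDC2 peak, chr11:83649532-83649628, minus strand: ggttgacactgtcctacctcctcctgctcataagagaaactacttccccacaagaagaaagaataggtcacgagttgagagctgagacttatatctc
The Cxcl9 and Cxcr3 stretches are whole peaks. The Cx3cr1 stretch is the part before the start site and lay under a peak in both subsets. The Cxcr4 and Ccl3 peaks reach further upstream than the promoter table.

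In cDC1, 35 of the 60 chemokine genes (58.3%) had at least 1 of 113 peaks. Of all placed protein-coding genes, 51.6% had one, so the share of chemokine genes lay near the background. In cDC2, 14 of the 60 (23.3%) had at least 1 of 21 peaks, against 9.58% of all genes. Both shares stood above their background also among the higher-scoring 50% of peaks, at 45.0% against 35.3% in cDC1 and 18.3% against 5.27% in cDC2. With peaks inside the gene or within 10 kb only, they were 55.0% against 48.0% and 13.3% against 7.54%. 13 genes had peaks in both lists, Ackr3 only in that of cDC2, and 24 in neither. Since the cDC2 list is much the shorter and comes from the shallower wild-type set, absence from it does not show a difference between the subsets.

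**Figure D1:**
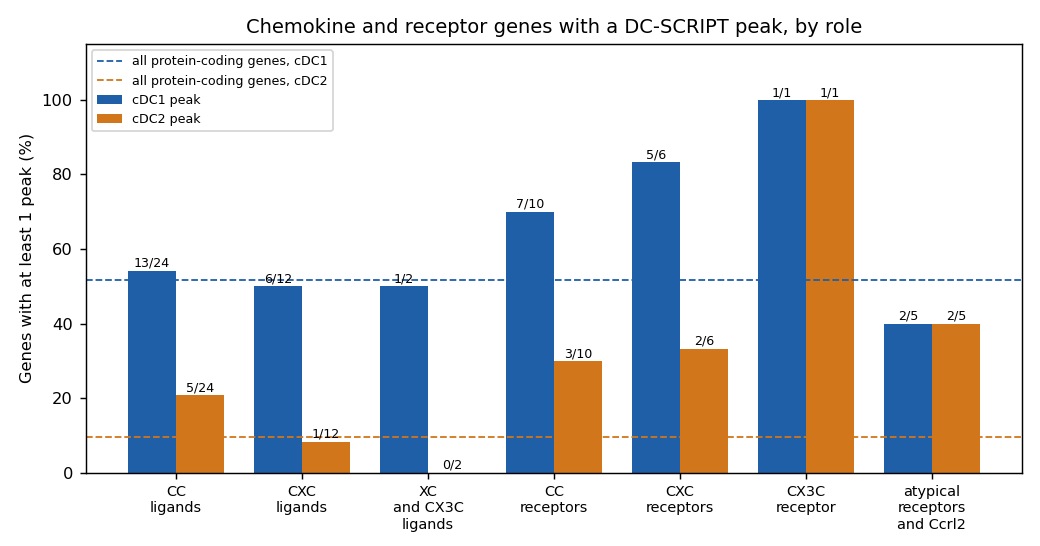
Share of genes with at least 1 assigned peak (%, vertical axis) in 7 groups of chemokine and receptor genes, for cDC1 (blue) and cDC2 (orange); numbers above the bars are genes with a peak over genes in the group, and dashed lines are all protein-coding genes. CXC receptors (5 of 6) and CC receptors (7 of 10) stand above the 51.6% line in cDC1, and atypical receptors with Ccrl2 (2 of 5) below it.

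Receptor genes had peaks more often than ligand genes in both subsets, at 15 of 22 (68.2%) against 20 of 38 (52.6%) in cDC1 and 8 of 22 (36.4%) against 6 of 38 (15.8%) in cDC2; the groups are small and this difference was not tested. The 22 receptor genes held 67 of the 113 cDC1 peaks and the 38 ligand genes 46. The median cDC1 peak at a chemokine gene held 21.0 normalised wild-type tags, with a range of 5.07 to 102.5, against 15.5 over the whole list. The knockout set held a median of 1.65 at these peaks, as over the whole list. The median fold was 12.1 against 10.2 over all. In cDC2 the median was 26.2 wild-type tags (range 16.8 to 69.1) and 3.66 knockout tags, with a median fold of 6.29 against 7.43 over all. In both subsets the median knockout level is below 3 tags, which equal 2.47 normalised tags in cDC1 and 4.40 in cDC2, so single folds are imprecise.

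**Figure D2:**
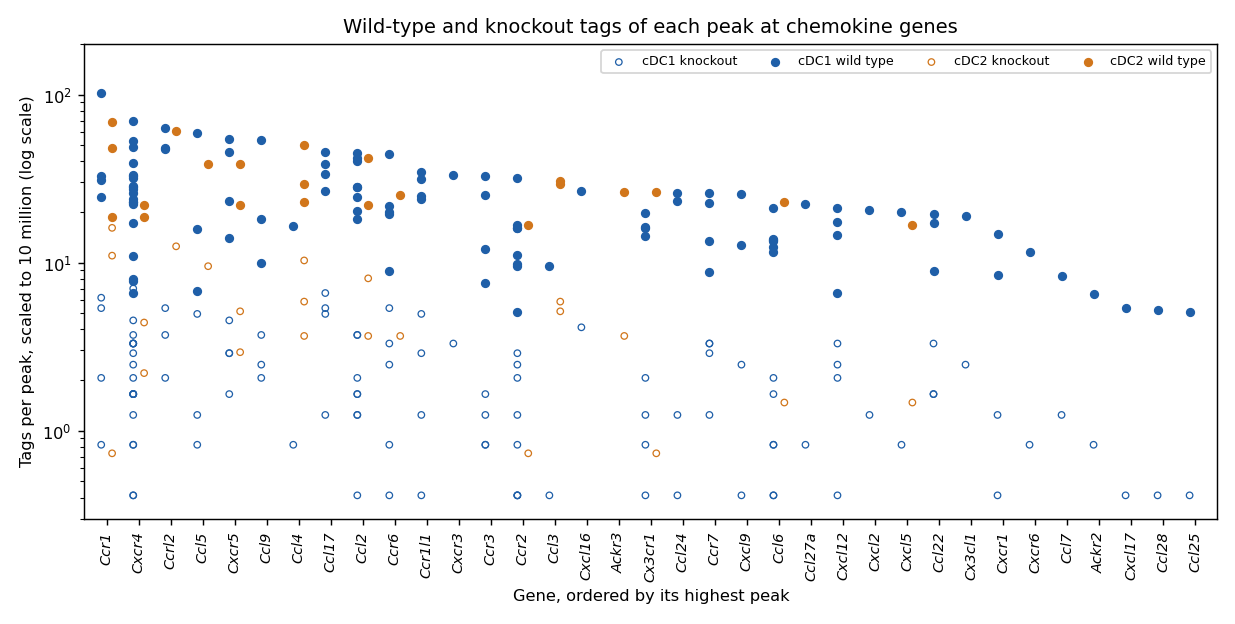
Normalised tags of each peak (vertical axis, log scale) at each chemokine gene reported here by name that had a peak, ordered by the highest peak; filled points are wild-type and open points knockout tags, blue for cDC1 and orange for cDC2, and the lowest row of open points in each colour stands for 0.5 tag or none. Ccr1 holds the highest point of both subsets, 102.5 in cDC1 and 69.1 in cDC2, and Cxcr4 the most points.

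Peaks at chemokine genes lay outside gene bodies more often than peaks in general. The share inside genes depends on the length of gene bodies, which was not compared between chemokine genes and all genes. Of the 113 cDC1 peaks, 26 (23.0%) had their centre inside a gene, against 56.0% of the list, and 55 (48.7%) were over 10 kb from the gene, against 24.6%. In cDC2, 5 of 21 (23.8%) were inside, against 50.1%, and 11 (52.4%) were over 10 kb away, against 28.4%. A gene's territory was its body, extended on each side to the midpoint of the gap to the next gene not overlapping it. Bases shared by the territories of overlapping genes were counted for each gene. Territories had a median of 43.7 kb for chemokine genes and 51.2 kb for all genes. Per Mb of territory, chemokine genes had 27.7 cDC1 peaks against 10.9 for all genes, and 5.15 cDC2 peaks against 0.964. Territories summed to 4.08 Mb for the 60 chemokine genes and 2880 Mb for the 21787 genes, so an average chemokine gene had less territory. The densities therefore depend on territory length, which counts shared bases more than once, as well as on peak number. The counts were 113 cDC1 peaks for 60 genes against 31462 for 21787, and 21 cDC2 peaks against 2775.

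Among the CC ligand genes, 13 of 24 had a cDC1 peak and 5 (Ccl2, Ccl3, Ccl4, Ccl5 and Ccl6) also a cDC2 peak. Ccl2, which recruits monocytes through Ccr2, had 8 cDC1 peaks, all below its lower end by coordinate, the nearest at 0.132 kb and the farthest at 30.6 kb. The nearest, chr11:82035350-82035540, held 45.1 wild-type and 1.24 knockout tags (fold 36.46, 7.45 to 228.0). In cDC2 the same place held 22.0 wild-type and 3.66 knockout tags (fold 6.0, 1.23 to 26.9). A further Ccl2 region in both lists lay 20.3 kb away and held 40.0 wild-type and 3.71 knockout tags in cDC1, and 41.9 and 8.06 in cDC2. The wild-type level was thus much the same in both subsets at the distant region and higher in cDC1 beside the gene. Ccl7, the next gene of the cluster and also a ligand of Ccr2, had 1 cDC1 peak of 8.32 wild-type and 1.24 knockout tags, and Ccl11, Ccl12, Ccl8 and Ccl1 beyond it had none.

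The second CC ligand cluster on chromosome 11, Ccl5, Ccl9, Ccl6, Ccl3 and Ccl4 within 139 kb, had cDC1 peaks at 5 of 5 genes (14 peaks) and cDC2 peaks at 4 (6 peaks). Ccl5, Ccl3 and Ccl4 attract T cells, and Ccl6 and Ccl9 are rodent ligands of Ccr1. The highest peak at Ccl5, chr11:83550326-83550516, stood 19.9 kb above its upper end and held 58.8 wild-type and 4.95 knockout tags in cDC1 (fold 11.88, 5.36 to 32.7). In cDC2 it held 38.7 and 9.52 (fold 4.07, 1.46 to 10.4), just inside the limit of the call. Ccl9 had its highest peak, chr11:83572278-83572468, 0.544 kb below its lower end, the 3′ side, with 53.7 wild-type and 3.71 knockout tags (fold 14.47, 5.47 to 40.5). It had 3 cDC1 peaks and none in cDC2. Ccl6 had 6 cDC1 peaks of 11.6 to 21.0 wild-type tags, and the highest, 2.96 kb upstream of its start, was also a cDC2 peak with 23.0 wild-type and 1.47 knockout tags (fold 15.72, 2.29 to 677.0).

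At Ccl3 and Ccl4 the cDC2 peaks held more normalised tags than the cDC1 peaks. The RefSeq model of Ccl4 overlaps Ccl3, so 1 cDC2 peak counted for both genes (29.3 wild-type and 5.86 knockout tags; fold 5.0, 1.57 to 20.9). The peak just upstream of the Ccl3 start, whose part nearest the start is printed above, held 50.3 wild-type and 10.3 knockout tags in cDC2 (fold 5.11, 2.15 to 14.0). A further cDC2 peak inside the Ccl4 model held 23.0 and 3.66 (fold 6.29, 1.38 to 29.3). No cDC1 peak overlapped these 3. Below Ccl3, 7.99 kb from its lower end, a region in both lists held 30.4 wild-type and 5.13 knockout tags in cDC2 and 9.59 and 0.412 in cDC1. The only cDC1 peak inside Ccl4 held 16.5 wild-type and 0.824 knockout tags (fold 20.0, 3.42 to 797.0).

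**Figure D3:**
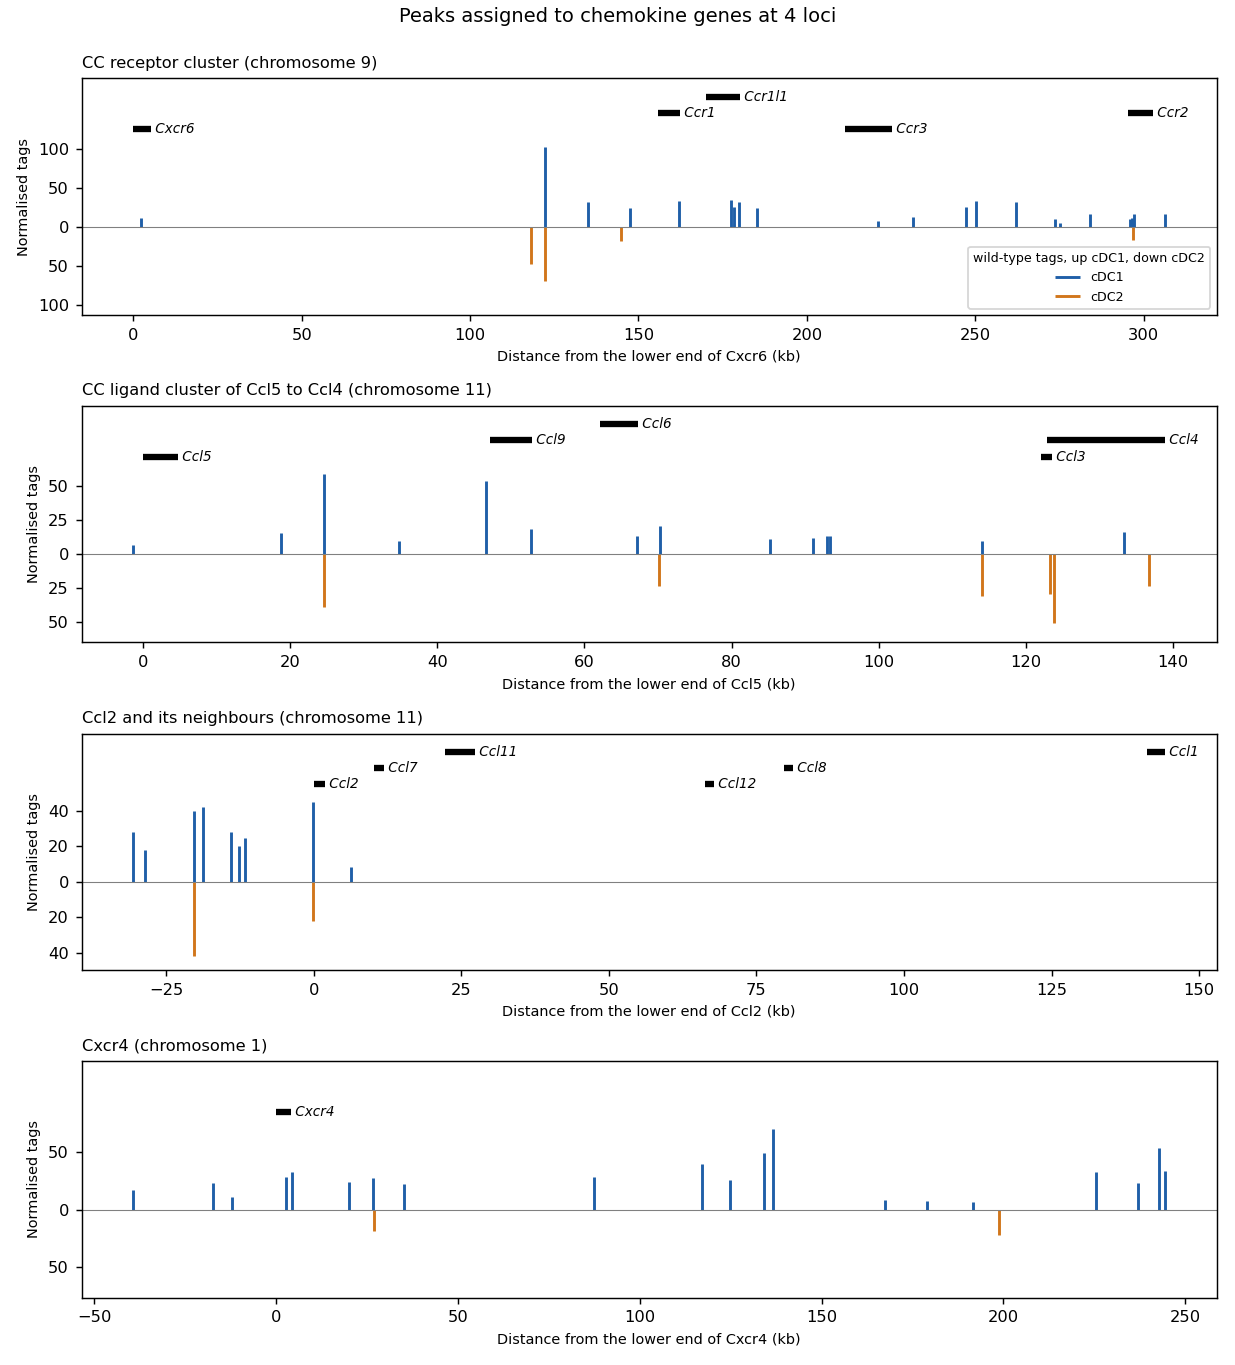
Wild-type normalised tags of peaks (vertical axis; cDC1 upward in blue, cDC2 downward in orange) along 4 loci, by distance (kb) from the lower end of the first gene; black bars are the bodies of genes named in the text. At Ccl3 and Ccl4, 3 cDC2 peaks have no cDC1 peak opposite; the cDC1 peaks of Ccl2 lie on 1 side of the gene, and those of Cxcr4 reach 240 kb upstream of its start.

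On chromosome 8, Ccl22, Cx3cl1 and Ccl17 lie within 66.4 kb, and 3 of 3 had cDC1 peaks (3, 1 and 4) with none in cDC2. Ccl17 and Ccl22 are the ligands of Ccr4, and Cx3cl1 is a membrane-bound ligand of Cx3cr1. The highest Ccl17 peak, chr8:94803624-94803814, stood 6.73 kb upstream of its start with 45.8 wild-type and 5.36 knockout tags (fold 8.54, 3.76 to 20.0), and the other 3 held 26.8 to 38.8 wild-type tags. The Ccl22 peaks were lower, at 8.88, 17.1 and 19.5 wild-type tags, and the last of them reached into the promoter window. Cx3cl1 had 1 peak of 19.0 wild-type and 2.47 knockout tags. Of the other CC ligands, Ccl24, a ligand of Ccr3, had 2 cDC1 peaks of 23.3 and 25.8 wild-type tags, and Ccl27a, a skin chemokine, 1 of 22.4. Ccl25 and Ccl28, chemokines of gut and other epithelia, had 1 peak each, at 5.07 and 5.22 wild-type tags, near the lower edge of the list. A further cDC1 peak, of 14.0 wild-type and 1.65 knockout tags (fold 8.46), overlapped the promoter window of Ccl25 and was assigned to another gene by its centre. On chromosome 4 the Ccl21 genes are near-identical copies of one another, and so are Ccl27a and Ccl27b. Only Ccl27a had a peak among the 6 genes there, which also include Ccl19. The labels and headers do not say how reads that match several places were treated. The lack of peaks at the copies is therefore uncertain.

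Among the CXC ligand genes, 6 of 12 had a cDC1 peak and Cxcl5 alone also a cDC2 peak. Cxcl9 had 2 cDC1 peaks, 1 covering bases 41 to 231 before its start (25.5 wild-type and 2.47 knockout tags; fold 10.31, 3.4 to 50.7) and 1 of 12.8 tags 2.86 kb below its lower end, with the knockout at the lowest value. Cxcl10, its neighbour and a ligand of the same receptor Cxcr3, had none. Of the 5 neutrophil-attracting CXC ligand genes on chromosome 5, Cxcl2 had 1 cDC1 peak 0.38 kb upstream of its start (20.6 wild-type and 1.24 knockout tags; fold 16.63, 3.33 to 105.0). Cxcl5 had 1 region 17.1 kb below its lower end in both lists, with 20.0 wild-type and 0.824 knockout tags in cDC1 and 16.8 and 1.47 in cDC2. Cxcl1, Cxcl3 and Cxcl15 had none. Cxcl12, the ligand of Cxcr4, had 4 cDC1 peaks of 6.63 to 21.0 wild-type tags, of which 1 was within 10 kb of the gene and the farthest 281 kb away in a gene-poor stretch. Cxcl16, a ligand of Cxcr6, had 1 peak of 26.8 wild-type and 4.12 knockout tags that is also inside Zmynd15, and Cxcl17 1 of 5.36.

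Among the CC receptor genes, 7 of 10 had cDC1 peaks (31 peaks) and Ccr1, Ccr2 and Ccr6 also cDC2 peaks. The tallest peak at any chemokine gene lay near Ccr1, a receptor for Ccl3, Ccl5, Ccl6 and Ccl9, at chr9:123928669-123928859. It stood 33.4 kb below the lower end of Ccr1, the 3′ side, and 66.7 kb from Xcr1, the nearest gene that is not one of the 60. It held 102.5 wild-type and 6.18 knockout tags in cDC1 (fold 16.57, 7.79 to 36.2), and ranked 112 of 31473 by wild-type tags. In cDC2 the region held 69.1 wild-type and 16.1 knockout tags (fold 4.29, 2.11 to 9.41) and ranked 67 of 2776, again the highest of the chemokine peaks. Ccr1 had 3 more cDC1 peaks of 24.5 to 32.8 wild-type tags, and 2 more in cDC2 of 48.2 and 18.8, of which the first had 11.0 knockout tags and the second the lowest value.

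Cxcr6, Ccr1l1, Ccr3 and Ccr2, which stand in the same cluster, had cDC1 peaks as well. Ccr2, the monocyte receptor for Ccl2, had 8 cDC1 peaks. The highest of them, chr9:124068382-124068572, lay 33.7 kb upstream of its start with 32.0 wild-type and 2.89 knockout tags (fold 11.23, 3.74 to 36.7), and the others held 5.07 to 16.8. A Ccr2 region inside the gene was in both lists, with 16.1 wild-type and 1.24 knockout tags in cDC1 and 16.8 and 0.733 in cDC2. Ccr1l1, a rodent gene similar to Ccr1, had 4 cDC1 peaks of 24.0 to 34.7 wild-type tags, 3 of them inside the gene; the highest, chr9:123983758-123983948, had 2.89 knockout tags (fold 12.06, 4.01 to 39.2). Ccr3, the eotaxin receptor, had 4 of 7.61 to 32.6, and Cxcr6 1 of 11.6 that is also inside Fyco1. None of Cxcr6, Ccr1l1 and Ccr3 had a cDC2 peak.

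Ccr6, the receptor for Ccl20, had 5 cDC1 peaks, the highest at chr17:8234615-8234805, 1.33 kb upstream of its start, with 44.4 wild-type and 5.36 knockout tags (fold 8.31, 3.66 to 19.5). Its cDC2 peak lay nearby, 2.24 kb upstream, with 25.1 and 3.66 (fold 6.86, 1.54 to 31.6), and did not overlap a cDC1 peak. The other 4 cDC1 peaks of Ccr6 held 8.88 to 21.7 wild-type tags. Ccr7 had 4 cDC1 peaks and none in cDC2. They held 25.8, 22.7, 13.5 and 8.74 wild-type tags and 1.24 to 3.3 knockout tags, and the nearest stood 0.195 kb above the upper end of the gene. Neither Ccl19 nor the placed Ccl21 genes, which encode the ligands of Ccr7, had a peak. Ccr4, Ccr8 and Ccr10 had none.

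Among the CXC receptor genes, 5 of 6 had a cDC1 peak (28 peaks) and Cxcr4 and Cxcr5 also cDC2 peaks. Cxcr4 had 20 cDC1 peaks, the most of any chemokine gene, with 6.63 to 69.2 wild-type tags and a median of 26.6. Its territory is 430 kb long, and the nearest gene not among the 60, Dars, was 132 to 415 kb from these peaks. Of the 20, 1 was inside Cxcr4, 2 were inside it or within 10 kb, and 3 lay below the gene; the others stood up to 240 kb upstream of its start. The highest, chr1:128724701-128724891, lay 132 kb upstream and held 69.2 wild-type and 7.01 knockout tags (fold 9.89, 4.85 to 20.7). The next, at 239 kb upstream, held 53.0 and 2.06 (fold 25.98, 7.3 to 106.0), and the peak beside the start site held 32.0 and 3.3 (fold 9.7, 3.67 to 36.1). In cDC2, Cxcr4 had 2 peaks, 22.8 and 195 kb upstream, with 18.8 wild-type and 2.2 knockout tags (fold 8.58, 1.33 to 61.2) and 22.0 and 4.4 (fold 5.0, 1.23 to 26.9). Neither overlapped a cDC1 peak. The first lay close beside the cDC1 peak 22.5 kb upstream, which held 27.3 wild-type and 3.3 knockout tags.

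Cxcr5 had 4 cDC1 peaks, the highest pair inside the gene. The first, chr9:44514308-44514498, held 54.1 wild-type and 2.89 knockout tags (fold 18.75, 6.31 to 60.9), and the second 45.8 and 4.53 (fold 10.41, 4.31 to 26.5). In cDC2 a peak over the first held 38.7 and 5.13 (fold 7.56, 2.12 to 26.1), and another, 18.6 kb above the upper end, 22.0 and 2.93 (fold 7.5, 1.52 to 67.1). Cxcr3, the receptor for Cxcl9 and Cxcl10, had 1 cDC1 peak, at its start, with 33.1 wild-type and 3.3 knockout tags (fold 10.04, 3.84 to 37.6). Cxcr1 had 2 cDC1 peaks of 8.46 and 14.9, and the neighbouring Cxcr2, which is also a neutrophil receptor, had none.

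Cx3cr1, the receptor for Cx3cl1, had 4 cDC1 peaks of 14.4 to 19.7 wild-type tags. The peak at its start site held 16.1 wild-type and 2.06 knockout tags in cDC1 (fold 8.0, 2.15 to 33.0). In cDC2 the same bases held 26.2, with the knockout at the lowest listed value (lower limit of the fold 3.97). Among the 46 genes with a promoter window, it was the only one whose window a peak overlapped in both lists; Ccl2, which has no window, had a peak in both lists beside its lower end. Among the atypical receptors, which bind chemokines without G protein signalling, Ackr2 had 1 weak cDC1 peak of 6.48 tags. Ackr3, a scavenger of Cxcl12, had 1 cDC2 peak of 26.2 wild-type and 3.66 knockout tags (fold 7.15, 1.54 to 31.6), 153 kb above its upper end. Ccrl2, which binds chemerin, stood among the highest genes in both subsets. Its region 23.5 kb upstream, chr9:111080885-111081075, held 63.4 wild-type and 3.71 knockout tags in cDC1 (fold 17.2, 6.53 to 48.1) and 60.7 and 12.5 in cDC2 (fold 4.88, 2.12 to 11.1). The other 2 Ccrl2 peaks in cDC1, 0.658 and 1.96 kb upstream, held 47.9 and 47.5.

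The 24 genes without a peak in either list were the ligands Ccl1, Ccl8, Ccl11, Ccl12, Ccl19, Ccl20, Ccl21a, Ccl21b, Ccl21d, Ccl26, Ccl27b, Cxcl1, Cxcl3, Cxcl10, Cxcl13, Cxcl14, Cxcl15 and Xcl1, and the receptors Ccr4, Ccr8, Ccr10, Cxcr2, Ackr1 and Ackr4. A gene is without a peak here when no call that passed the limits of the authors was assigned to it, which is not the same as no binding.

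Of the 21 cDC2 peaks at chemokine genes, 11 shared 1 bp or more with a cDC1 peak (52.4%, exact 95% interval 29.8% to 74.3%), against 63.7% of all 2776 cDC2 peaks. In these 11 regions the wild-type tags had a median of 40.0 in cDC1 and 30.4 in cDC2, and cDC1 was higher in 6. The median ratio of cDC1 to cDC2 wild-type tags was 1.04, against 1.09 over all 1767 shared regions. The interval of the ratio excluded 1 in 3 regions. Ccl2 beside the gene (ratio 2.05, 1.14 to 4.58) and Ccr1 (1.48, 1.04 to 2.18) held more in cDC1, and the region below Ccl3 (0.315, 0.171 to 0.659) held more in cDC2. The other 8 ratios ran from 0.615 at Cx3cr1 (0.346 to 1.33) to 1.52 at Ccl5 (0.96 to 2.68), each with an interval that holds 1. The cDC2 wild-type set is 1 library, so these ratios carry no spread between pools.

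**Figure D4:**
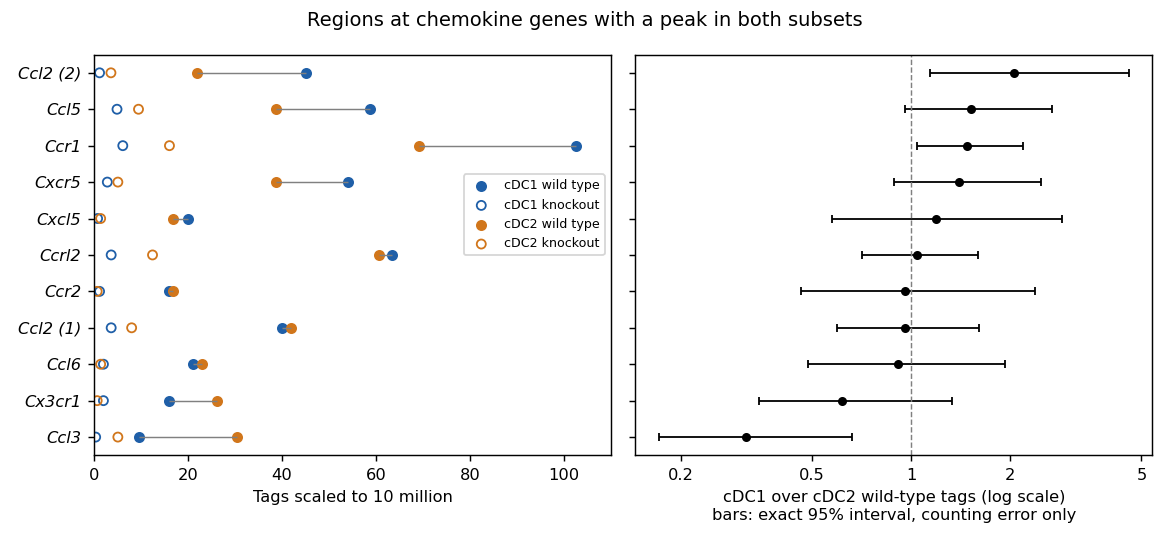
The 11 regions with a peak in both subsets: left, normalised tags (horizontal axis) of wild-type (filled) and knockout (open) sets for cDC1 (blue) and cDC2 (orange); right, the ratio of cDC1 to cDC2 wild-type tags (log scale) with its exact 95% interval. Ccl2 (1) is the region 20.3 kb from Ccl2 and Ccl2 (2) the one beside it; the intervals of Ccl2 (2), Ccr1 and Ccl3 leave out 1.

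The promoter table held a window of 250 bases before to 50 after the start for 46 of the 61 genes (55 windows). A cDC1 peak overlapped a window at 8 of the 46 (17.4%), namely Ccl6, Ccl22, Ccl25, Ccr1, Cx3cr1, Cxcl9, Cxcr3 and Cxcr4, against 18.0% of 27025 genes in the table. A cDC2 peak did so at 2 of the 46 (4.35%), Ccl3 and Cx3cr1, against 1.11%. The promoter table holds more genes than the 21900 protein-coding genes, so its shares, also of motifs, have another background than those above. The windows were searched on both strands for 6 motifs: GAGGAA, the core bound by PU.1; GGAANNGAA, an ETS-IRF composite; GAAANNGAA, an interferon response element; TGANTCA of AP-1; GGGANTTTC of NF-kB; and TGTGGTT of Runx. Matches of GAGGAA, GGAANNGAA and GAAANNGAA can share bases. GGGANTTTC was in 6 of the 55 windows (10.9%) and in 1.11% of all 32851, and TGANTCA in 10 (18.2%) against 7.81%. GAGGAA was in 19 (34.5%) against 28.3%, GAAANNGAA in 8 (14.5%) against 8.56%, GGAANNGAA in 7 (12.7%) against 8.24%, and TGTGGTT in 5 (9.09%) against 5.27%. Of the stretches under peaks printed above, that of Cxcl9 held 1 match each to the interferon response, NF-kB and Runx motifs, and the other 4 held none. Matches describe letters, not bound sites, and several windows belong to 1 gene.

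Of 37 other genes of chemokine action, 31 (83.8%) had cDC1 peaks and 17 (45.9%) cDC2 peaks, with 202 and 33 peaks, against 51.6% and 9.58% of all genes; this list was chosen with earlier results of these data known. Xcr1, the cDC1 receptor for Xcl1, had 5 cDC1 and 2 cDC2 peaks, and its highest, inside the gene, held 51.2 wild-type and 3.3 knockout tags in cDC1 (fold 15.51, 5.94 to 57.4). Its ligand gene Xcl1 and the platelet chemokines Pf4 and Ppbp had none. Of 19 genes that signal downstream of the receptors, 16 had a cDC1 peak and 10 a cDC2 peak. The highest was in Tiam1, a Rac activator, with 123.6 wild-type and 1.65 knockout tags in cDC1 (fold 75.62, 20.8 to 626.0) and 64.9 and 11.0 in cDC2. Dock2 and Elmo1, partners in Rac activation, had cDC1 peaks of 83.0 and 99.1 wild-type tags, and Pik3r5, a subunit of PI3K gamma, 89.7. Of 7 genes that end receptor signalling, 7 had a cDC1 peak and 2 a cDC2 peak, with Rgs2 at 85.1 wild-type and 2.89 knockout tags (fold 29.59) and Rgs10 at 76.5 and 6.59. Of 8 other chemoattractant receptor genes, 7 and 4 had peaks.

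The lists measure binding and not expression, so neither the sorted cell types nor the loss of Zfp366 could be checked by expression. Peaks lay at 7 of 7 cDC1 marker genes in cDC1 and 3 in cDC2, at 5 of 6 cDC2 marker genes in cDC1 and 3 in cDC2, and at 2 of 5 marker genes of other spleen cells (Cd3e and Siglech, 40.0%) in cDC1 and 0 in cDC2. Of all genes, 51.6% had a cDC1 peak and 9.58% a cDC2 peak.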

How the data were processed

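The titles of the splenic cDC1 and cDC2 libraries gave their subset and genotype. Per the file headers, the authors called peaks with HOMER findPeaks on 1 wild-type and 1 knockout tag directory per subset, with a fold of at least 4 over knockout, a Poisson p-value of at most 0.0001 and a false discovery rate of 0.001. The headers give a maximum of 1 tag considered per bp. The aligner, any removal of duplicates before the calls and the libraries behind each directory were not stated in the labels or headers. The submitters' processing notes name GRCm38 and mm10. The deposited signal is the wild-type tag count scaled to 10000000 tags; the deposited fold divides wild-type by knockout tags after depth scaling; the deposited score is HOMER's own and was used to rank peaks within a list. The deposited p-value is over tags, not replicates. The deposited focus ratio, a fraction, was not used.

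Knockout depths were worked out from the scaling between columns, and 3 tags equal 2.47 (cDC1) and 4.40 (cDC2) normalised knockout tags. Intervals used tags rounded to whole numbers (fractions of 0.5 down in wild type, up in knockout). Medians of the fold include peaks with the knockout at the lowest value, at the fold listed. Per the headers, at most 1 tag per bp was considered in the calls. Whether the listed tag counts keep tags repeated at 1 position is not stated, and such tags would make intervals too narrow. RefSeq genes of GRCm38.p6 on assembled chromosomes were used; that table gives no strand, and strands come from the promoter table. The 113 unplaced protein-coding genes were left out. 1 receptor gene is counted but not reported here by name; for the rest, full values are given for members with a cDC2 peak, the 10 with the highest-scoring and the 5 with the most cDC1 peaks, and at most 6 pathway genes with the highest scores; Xcr1, Pf4, Ppbp, Cd3e and Siglech fall outside that rule and were picked once their values were known. The members and lists were chosen with earlier results of these data known. The planned tests per library were not run, because the lists hold no library. Assignment of peaks inside genes was tested on simulated data, and assignment to the nearest gene end was not. Python 3.11.15, pandas 2.3.3, numpy 2.4.6, scipy 1.17.1 and matplotlib 3.10.9 were used.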

Additional observations from a re-analysis of the deposited data

How the results depend on the processing

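41 alternatives were computed; 30 stayed within 1.5 times the count, or inside the order-statistic interval of the median over peaks, and 11 moved. With a fold of at least 8, cDC2 gave 6 chemokine genes and 6 peaks, a median of 18.8 wild-type tags and a median fold of 19.3, and the median fold in cDC1 was 14.8. A higher fold limit raises the median fold by its construction. It also lowered the share of all genes with a cDC2 peak, from 9.58% to 5.04% (1098 of 21787), against 6 of the 60 chemokine genes. In cDC1 a fold of at least 8 left 51.7% of chemokine genes with a peak, against 38.7% of all genes. With peaks inside the gene or within 10 kb of a gene end only, 58 cDC1 peaks remained, and cDC2 gave 8 genes and 10 peaks. With the nearest gene of any biotype, cDC2 gave 8 genes and 9 peaks, since peaks then go to noncoding genes as well. The share over all genes was not computed for this setting, so it does not show whether the cDC2 share stays above its background. The higher-scoring 50% of cDC1 peaks had a median of 25.8 wild-type tags. Of the 21 cDC2 peaks, 9 to 13 shared a region with cDC1 by the rule for overlap, and 8 of 15 in the higher-scoring 50% of both lists.

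No paired analysis was possible because the deposited lists hold no value per library; leaving out a replicate was not possible for the same reason. Assignment by distance to the start site was not run, as the gene table gives no strand. Depth limits cDC2 most: its peaks at chemokine genes rest on 8 to 33 wild-type tags, against 18 to 363 in cDC1.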
